A study of Mus musculus with 2 samples.

Results

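The osteoclast genes Ctsk, Acp5, Slc9b2, Atp6v0d2, Dcstamp, Ocstamp, Nfatc1 and Tnfrsf11a, 8 of the 32285 mouse genes counted, were followed in the immune cells of osteosarcoma tumors. They were chosen by name, and all 8 had UMIs (unique molecular identifiers, each standing for 1 captured RNA molecule) in both libraries. Where a pair of values is given, the first is that of control IgG and the second that of anti-CD3L1. The tumors came from 143B, a human osteosarcoma cell line, injected under the skin of female nude mice 4 weeks old, which lack a thymus and hence most T cells while their myeloid cells remain. The mice received 10 mg/kg of a control IgG (human IgG1) or 10 mg/kg of an antibody against CD3L1, the product of ITPRIPL1, in 4 doses 3 days apart. Cells carrying CD45, a surface protein of blood-derived cells, were taken with magnetic beads from 3 pooled tumors per group, and each group gave 1 droplet (10x Genomics) library. Which cell came from which tumor is not recorded, so no test between the groups was possible and every 95% interval below covers counting error only. A question of the study was how the antibody changes tumor macrophages where T cells are lacking, and these genes ask it of the part of the myeloid lineage that can resorb bone.

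Osteoclasts are giant multinucleated cells that arise when precursors of the monocyte and macrophage lineage meet the growth factor M-CSF and the cytokine RANKL. RANKL binds RANK, the receptor encoded by Tnfrsf11a, and its signal raises NFATc1, the transcription factor that turns on most of the osteoclast program. The membrane proteins DC-STAMP (Dcstamp) and OC-STAMP (Ocstamp) are needed for the precursors to fuse. The mature cell seals itself onto bone and acidifies the space beneath with a proton pump of which Atp6v0d2 encodes a subunit, while Slc9b2 encodes the sodium/proton exchanger NHA2. Cathepsin K (Ctsk) then cuts the collagen of the bone, and the tartrate-resistant acid phosphatase TRAP (Acp5) is the enzyme by which osteoclasts are stained. Osteosarcoma is a bone-forming tumor in which osteoclasts are often found, although the tumors here grew away from bone. Several of the genes also work elsewhere, Nfatc1 in lymphocytes, Acp5 in macrophages and Ctsk in fibroblasts.

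After filtering, 8557 and 11269 cells were kept, with medians of 5526 and 8267 UMIs per cell. A cell was assigned to a gate when it held UMIs of at least 3 of the 6 markers of that cell type and more than of any other type, and doublets were kept. The control IgG library was mostly neutrophil-gated cells (5471, 63.9%), of which anti-CD3L1 had 541. The macrophage gate held 451 and 3495 cells, the monocyte gate 1283 and 2974, the dendritic gate 53 and 655, the NK gate 153 and 832, and 1089 and 2479 cells had no gate. These gates cut a continuum: in the macrophage gate 60 and 313 cells stood at exactly 3 markers, and 132 and 1095 also held 3 markers of another gate. The median macrophage-gated cell held 95 and 78 UMIs of the macrophage markers, 2 and 0 of the neutrophil markers and 3 and 4 of the monocyte markers. The fibroblast gate held 32 anti-CD3L1 cells, with a median of 610 fibroblast marker UMIs. The 6 control IgG cells in it had a median of 4, below the 8.5 of their monocyte markers, so their gate goes against their markers and they are not described. The libraries shared 26 cell barcodes, none of them among the gene-rich cells described below.

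All 8 genes are protein-coding. Matched by Ensembl identifier to GENCODE M21 (build GRCm38, whereas the submitters name GRCm39), Ctsk lies at chr3:95499256-95509362 on the plus strand and Slc9b2 on the same chromosome at chr3:135307700-135345387. Acp5 is at chr9:22126727-22135711 on the minus strand, Atp6v0d2 at chr4:19876841-19922605, Dcstamp at chr15:39745930-39760938, Ocstamp at chr2:165393760-165400405 and Tnfrsf11a at chr1:105780718-105847981. RefSeq promoters (GRCm38.p6) were used for 4 of the 8 genes, Nfatc1 not among them, at 6 start sites. They were searched on both strands for TGGAAA, the core letters bound by NFAT factors, since NFATc1 is itself among the genes. Each window searched ran from 250 bases before to 50 after the start. The letters occurred near the start of Ctsk and at 1 of the 3 starts of Acp5, and in 21.4% of all 32851 promoters of this length, 300 bases. They were not in the windows of Slc9b2 and Tnfrsf11a. TGANTCA, the letters of AP-1 factors, was in none of the 6 windows and in 7.81% of all promoters. These matches describe letters and not bound sites. The 270 bases from 250 before to 20 after the start are shown for the 2 genes with a match, 5′ to 3′ on the strand of the gene, with the match in capitals, which in both stands as TTTCCA because it lies on the opposite strand. For Ctsk the sequence is chr3:95498960-95499229, plus strand, and the match begins at base 251. For Acp5 it is chr9:22130579-22130848, minus strand, and the match begins at base 134.
Ctsk: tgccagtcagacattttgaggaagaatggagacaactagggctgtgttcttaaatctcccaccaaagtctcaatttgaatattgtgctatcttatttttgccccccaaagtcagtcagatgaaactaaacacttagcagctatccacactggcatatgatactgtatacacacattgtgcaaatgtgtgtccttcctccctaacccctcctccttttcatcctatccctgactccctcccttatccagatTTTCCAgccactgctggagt
Acp5: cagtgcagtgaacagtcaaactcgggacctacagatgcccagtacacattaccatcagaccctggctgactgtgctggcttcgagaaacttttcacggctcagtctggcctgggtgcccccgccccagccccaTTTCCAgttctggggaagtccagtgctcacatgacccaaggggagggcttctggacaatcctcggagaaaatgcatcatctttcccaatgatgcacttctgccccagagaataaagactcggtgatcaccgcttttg

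Most UMIs of Ctsk, Atp6v0d2 and Slc9b2 in the control IgG library came from a few cells. A cell was called gene-rich when it held at least 6 of the 8 genes and they made up at least 0.5% of its UMIs, a definition set after the values were seen. There were 25 such cells with control IgG and 20 with anti-CD3L1. In the control IgG library these 25 cells held 88.0% of all Ctsk UMIs (3498 of 3973), 72.4% of Atp6v0d2, 62.9% of Slc9b2, 29.8% of Dcstamp, 26.3% of Acp5, 20.2% of Ocstamp, 14.6% of Nfatc1 and 3.62% of Tnfrsf11a. In the anti-CD3L1 library the 20 cells held 61.3% of Slc9b2 and 48.8% of Ctsk (2255 of 4618), but 10.4% of Atp6v0d2 and at most 7.55% of any other member. The receptor gene Tnfrsf11a was thus the member least tied to these cells in the control IgG library, and Dcstamp in the anti-CD3L1 library, where they held 0.934% of its UMIs.

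**Figure D1:**
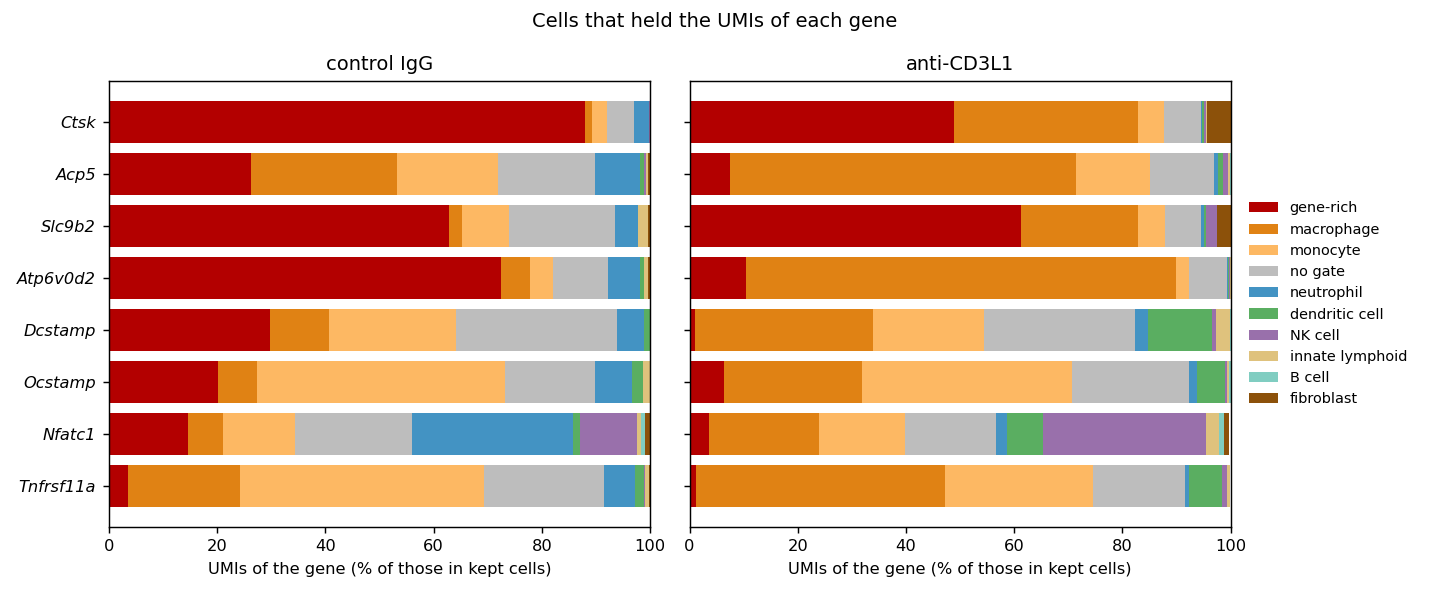
The bars give, for each gene and library, the percentage of its UMIs in kept cells that lay in gene-rich cells (dark red) and in the cells of each marker gate without them. In the control IgG library gene-rich cells held 88.0% of Ctsk UMIs, and in the anti-CD3L1 library macrophage-gated cells held 79.5% of Atp6v0d2 UMIs.

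Gene-rich cells were rare in both libraries. They made up 0.292% of the control IgG cells (exact binomial 95% interval 0.189 to 0.431%) and 0.177% of the anti-CD3L1 cells (0.108 to 0.274%), a difference of −0.11 percentage points with an interval of −0.27 to 0.02 that includes 0. Over cells outside the neutrophil gate, 23 of 3086 and 20 of 10728 were gene-rich, or 0.745% and 0.186%, and the difference of −0.56 points (−0.94 to −0.29) exceeded counting error. The share thus depends on which cells it is taken over. All 8 genes were found in 11 of the 25 and 10 of the 20 cells, 7 genes in 8 and 8, and 6 genes in 6 and 2. The members summed to between 0.529 and 4.61% of the UMIs of a gene-rich cell with control IgG (median 1.04%) and to between 0.670 and 2.33% with anti-CD3L1 (median 1.27%), against 0.0414% and 0.0623% over all kept cells. Next to the limit, the lowest cells inside held 0.529, 0.554 and 0.577% and the highest outside with 6 genes 0.471, 0.424 and 0.386% in the control IgG library. In the anti-CD3L1 library the corresponding values were 0.670, 0.759 and 0.814% inside and 0.417, 0.272 and 0.257% outside, so the gap was wider there. With fewer than 6 genes, a few other cells also passed 0.5%.

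**Figure D2:**
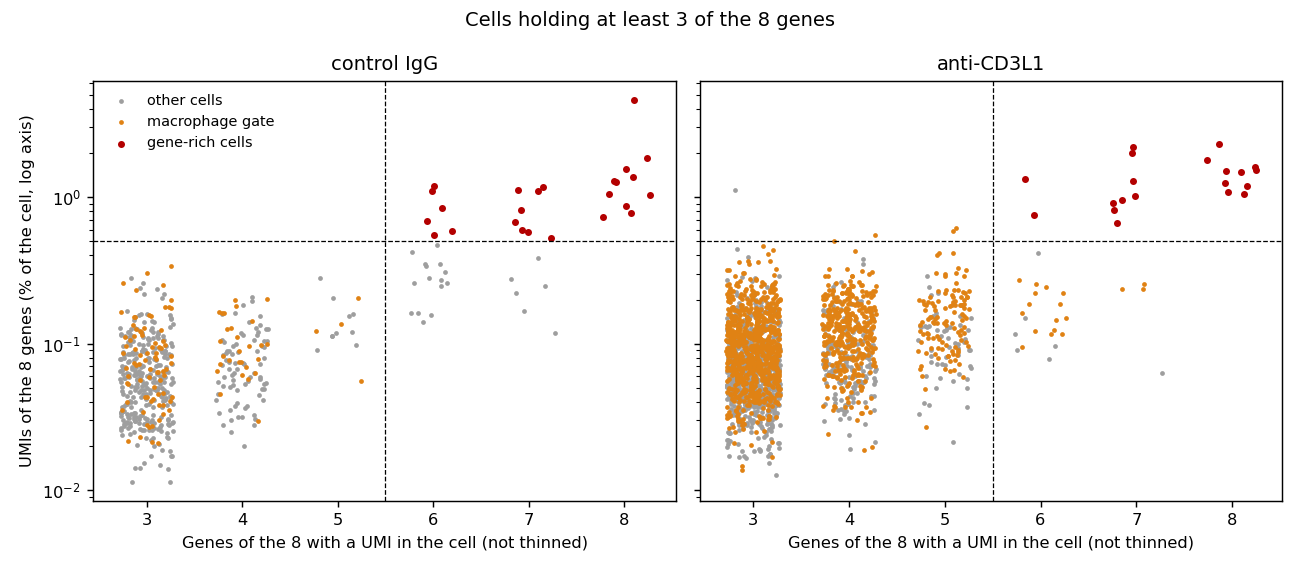
Each point is a cell with at least 3 of the 8 genes, placed by how many of them it held (horizontal, spread sideways for view) and by the percentage of its UMIs they made up (vertical, log axis), with dashed lines at the limits of the gene-rich definition. The 25 and 20 gene-rich cells (dark red) lie above 0.5% with 6 to 8 genes, while most macrophage-gated cells (orange) lie below 0.5% with 3 to 5.

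The gene-rich cells were deep and mostly outside the gates. Their UMIs ranged from 17238 to 43945 (median 32713) with control IgG and from 11043 to 33868 (median 21137) with anti-CD3L1, with medians of 5008 and 4540.5 genes. Mitochondrial genes gave a median of 2.93% and 3.01% of their UMIs, against 1.74% and 1.37% in the macrophage gate. No gate took 18 of the 25 and 13 of the 20. Of the rest, 3 and 6 were macrophage-gated, 2 of the control IgG cells neutrophil-gated, 1 monocyte-gated and 1 dendritic, and 1 anti-CD3L1 cell NK-gated. None of the 25 and 4 of the 20 held 3 markers of a second gate. The median gene-rich cell held 1 and 3 UMIs of the 6 macrophage markers, 1 and 5.5 of 6 markers of a first dendritic list, 1 and 0.5 each of the monocyte and neutrophil markers, and 0 of the NK, B, T cell, fibroblast and endothelial markers. Other barcodes that the filters left out also met the definition: 9 of the 23 control IgG barcodes with 6000 or more genes, against 1 of 19 in the anti-CD3L1 library, and 7 of 279 and 2 of 889 barcodes with 5 to 10% mitochondrial UMIs. The 23 control IgG barcodes alone held 3592 Ctsk UMIs, beside the 3973 in all kept cells of that library. With no limit on genes the difference in the share of gene-rich cells was −0.20 points (−0.37 to −0.05). Whether such barcodes are single large cells was not tested.

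Within these cells the resorption enzymes and the pump subunit were present in every cell. Ctsk ranged from 10 to 670 UMIs per cell (median 103) with control IgG and from 13 to 275 (median 110.5) with anti-CD3L1. Acp5 ranged from 16 to 455 (median 144) and from 34 to 272 (median 116). The ranges of the libraries overlap for both enzymes. Atp6v0d2 was in every cell, with 4 to 54 UMIs (median 24) and 5 to 51 (median 18), and the exchanger gene Slc9b2 in 23 of 25 and 19 of 20, with medians of 10 and 5. The regulators were in every cell too: Nfatc1 with 3 to 40 (median 16) and 2 to 36 (median 8.5), and Tnfrsf11a with 1 to 21 (median 4) and 1 to 12 (median 5). The fusion genes varied most in whether they were found. Ocstamp was found in 21 of 25 and 18 of 20 cells, and Dcstamp in 11 of 25 and 11 of 20, with up to 29 and 8 UMIs. Scaled to the depth of the cells, the summed levels were 4364 and 5424 CPM (UMIs of the gene per 1000000 UMIs of the cells) for Ctsk, and 4553 and 5759 for Acp5. Atp6v0d2 stood at 827 and 1092 CPM, Nfatc1 at 600.1 and 509.9, Slc9b2 at 362 and 293, Tnfrsf11a at 201 and 281, Ocstamp at 155 and 183, and Dcstamp at 98.6 and 77.0. Since the members chose the cells, these levels are a description.

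**Figure D3:**
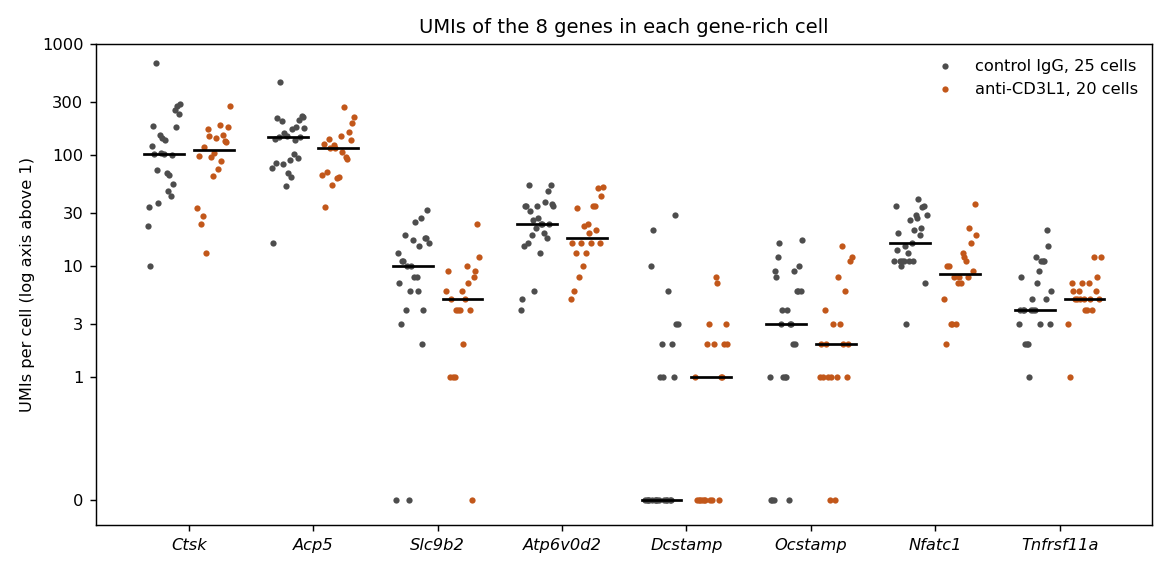
Each point is 1 gene-rich cell, plotted by its UMIs of each of the 8 genes (vertical, log axis above 1, with 0 shown), for the control IgG (grey, 25 cells) and anti-CD3L1 (orange, 20 cells) libraries; black bars are medians. The ranges of the libraries overlap for every gene, with the highest cell at 670 Ctsk UMIs, and Dcstamp is at 0 in 14 and 9 cells.

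Genes outside the 8 that were not used to find the cells help to describe them. Ptprc, which encodes CD45, had UMIs in 25 of 25 and 17 of 20 gene-rich cells, at 146 and 212 CPM against 559 and 558 CPM in the macrophage gate without gene-rich cells. The myeloid genes Csf1r, the M-CSF receptor (468 and 635 CPM against 398 and 343), and Cd68, a lysosomal protein of phagocytes (509 and 546 against 501 and 712), were in every gene-rich cell. Adgre1, which encodes the macrophage surface protein F4/80, was in 2 of 25 and 2 of 20 cells, at 2.50 and 4.81 CPM against 431 and 222 CPM, and Lyz2 (lysozyme) stood at 140 and 558 CPM against 8281 and 7636. Lower as well were Itgam, in 16 of 25 and 13 of 20 cells at 52.4 and 77.0 CPM against 325 and 137, and Cx3cr1, at 1.25 and 26.5 CPM against 252 and 123. Cd74 stood at 141 and 765 CPM against 3734 and 6079. These genes were named after their values were seen.

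Of 14 further genes of acid secretion and matrix resorption, 9 with control IgG and 11 with anti-CD3L1 were higher in gene-rich than in macrophage-gated cells beyond counting error, 9 of them in both, and 0 were lower. The median log2 ratios were 0.80 and 1.11. Over the 9438 genes found in gene-rich and macrophage-gated cells of both libraries with at least 20 UMIs in each library, 23.9% were higher and 26.1% lower with control IgG, 20.9% and 15.8% with anti-CD3L1, and 14.4% higher and 14.0% lower in both, with medians of −0.05 and 0.08. Mmp9, a gelatin-cutting protease of osteoclasts and neutrophils, was in 24 of 25 and 19 of 20 cells at 1951 and 2704 CPM, against 106 and 2.63 CPM in the macrophage gate. In the neutrophil gate, where the gene is also known to be active, Mmp9 stood at 347 and 372 CPM, below the gene-rich cells. Genes of the proton pump and of an exchanger followed at smaller ratios, Tcirg1 (288 and 440 CPM, log2 0.80 and 1.38) and Atp6v1b2 (739 and 705 CPM, log2 1.76 and 1.46) as proton pump subunits and Slc4a2 (78.6 and 101 CPM, log2 2.64 and 3.11) as the chloride/bicarbonate exchanger. The chloride channel gene Clcn7 stood at log2 −0.01 and 0.88, higher beyond counting error with anti-CD3L1 alone, and that of its partner Ostm1 at 0.36 and −0.15, within counting error in both. Car2, the carbonic anhydrase that supplies protons, was found in 13 of 25 and 11 of 20 cells at 122 and 89.0 CPM against 2.96 and 9.29. In the NK gate Car2 was higher than in the gene-rich cells, at 369 and 228 CPM. Itgb3, the integrin chain by which osteoclasts hold bone, was in 9 of 25 and 5 of 20, at 29.9 and 24.1 CPM against 1.09 and 2.71. The NK gate exceeded the gene-rich cells for Itgb3 too, at 55.1 and 65.2 CPM. Calcr, the calcitonin receptor of mature osteoclasts, had 0 UMIs in all 45 cells.

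The regulators of RANK signalling went both ways, and those that hold back osteoclast formation were lower. Of 12 genes of RANK signalling, 6 and 4 were higher and 3 and 3 lower, with 4 higher in both libraries: Jdp2 (log2 2.17 and 3.01), Prdm1 (1.79 and 2.83), Fosl2 (1.21 and 1.75) and the kinase gene Src (1.86 and 0.87). Over all genes compared, 23.9% and 20.9% were higher, 26.1% and 15.8% lower, and 14.4% higher in both. Jdp2 and Fosl2 encode AP-1 family factors, and Prdm1 encodes the repressor BLIMP1, which removes inhibitors of the osteoclast program. Fosl2 was not particular to the gene-rich cells, at 228 and 243 CPM there and 238 and 165 CPM in the NK gate. Other AP-1 genes of the list were not higher. Fos stood at −1.84 and at 0.02, the latter within counting error. Fosl1 had 0 UMIs in the gene-rich cells with control IgG and 1 UMI with anti-CD3L1 (−2.98). Nfkb1 and Relb, which encode NF-κB subunits, were lower (−2.35 and −1.41, −1.29 and −0.58). Of 5 negative regulators of osteoclast formation, 4 were lower in gene-rich cells in both libraries, where 14.0% of all genes were, with medians of −2.34 and −1.74, and the other, Id1, had 0 UMIs there. The values were −3.13 and −2.11 for Irf8, −2.66 and −2.19 for Bcl6, −2.02 and −1.38 for Id2 and −0.88 and −0.64 for Nfkbia. Irf8 encodes a factor of the macrophage lineage and kept some UMIs, in 11 of 25 and 12 of 20 cells.

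**Figure D4:**
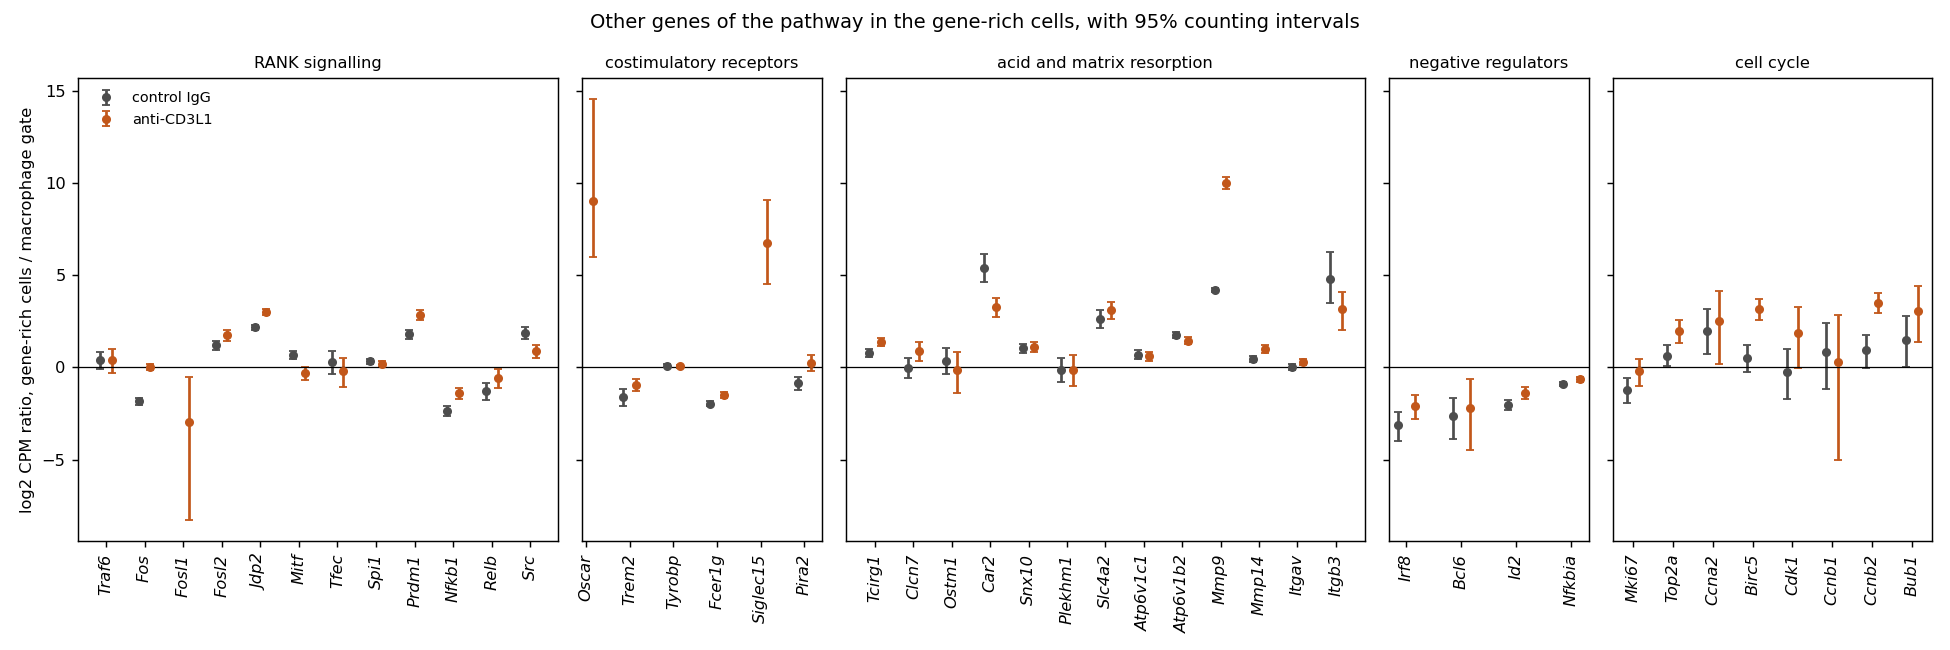
Points give the log2 ratio of CPM in gene-rich cells over macrophage-gated cells without them (vertical), for 5 lists of further genes in the control IgG (grey) and anti-CD3L1 (orange) libraries, with 95% counting intervals; genes with 0 UMIs on either side in a library have no point there. Mmp9 stands at 4.20 and 10.01, and the 4 negative regulators with a ratio all lie below 0.

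The counts of this paragraph stand beside those of all genes compared, of which 23.9% and 20.9% were higher in gene-rich cells and 26.1% and 15.8% lower. Of 6 genes of receptors that assist RANK, 1 and 2 were higher and 3 and 2 lower, and 2 had no ratio with control IgG, Oscar and Siglec15. The 1 higher with control IgG was Tyrobp, by little (log2 0.09, 0.01 to 0.18), and the 2 higher with anti-CD3L1 were Oscar and Siglec15. Oscar, an osteoclast-associated receptor, gave 13 UMIs in 6 of the 25 control IgG cells and none in the macrophage gate of that library, at least 5.12 higher on the log2 scale when 3 UMIs are put in place of the 0. In the anti-CD3L1 library its 6 UMIs came from 1 cell. Siglec15 gave 9 UMIs in 5 cells and 5 UMIs in 5 cells. Trem2 and Fcer1g, which many macrophages use, were lower (−1.62 and −0.95, −1.96 and −1.48). Of 7 further genes of cell fusion, 1 and 0 were higher and 5 and 4 lower, with Cd9 higher in the control IgG library alone (1.25, against −0.07). The neutrophil gate held more Cd9 than the gene-rich cells, at 949 and 967 CPM against 222 and 168. Of 8 cell cycle genes, 3 and 5 were higher and 1 and 0 lower, with medians of 0.74 and 2.26. Top2a was found in 5 of 25 and 8 of 20 gene-rich cells and Mki67 in 6 of 25 and 4 of 20, so these levels came from a minority of the cells. The NK gate exceeded the gene-rich cells for both. Top2a stood there at 152 and 170 CPM against 41.2 and 55.3, and Mki67 at 123 and 149 against 26.2 and 40.9. The ligand RANKL (Tnfsf11) gave 23 and 129 UMIs in all kept cells and its decoy osteoprotegerin (Tnfrsf11b) 2 and 20, and NK-gated cells held 10 of the 23 and 42 of the 129 RANKL UMIs, with 26 of the 129 in the 32 fibroblast-gated cells. The human tumor cells are not in these mouse counts, so their RANKL is not measured here. Of 8 osteoblast genes, 0 were higher and 7 had no ratio in either library, since Sp7, Alpl, Ibsp, Bglap, Bglap2, Phex and Dmp1 gave 0 UMIs in the gene-rich cells. The other, Runx2, was in 9 of 25 and 5 of 20 of them. Its log2 ratio was −1.05 (−2.03 to −0.21) with control IgG and −0.69 (−1.60 to 0.09) with anti-CD3L1, the latter within counting error.

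Outside the gene-rich cells the members fell into separate patterns over the gates. The levels below leave those cells out unless stated, cover the macrophage, monocyte, dendritic, neutrophil and NK gates and the cells of no gate, and name smaller gates only where their values matter. Ratios between libraries are log2 values of the anti-CD3L1 level divided by the control IgG level. In the RNA outside cells, taken from barcodes of 10 to 100 UMIs, Ctsk stood at 103 and 79.0 CPM, Acp5 at 308 and 427, Tnfrsf11a at 31.4 and 54.1, Nfatc1 at 39.4 and 36.6, Atp6v0d2 at 21.7 and 40.9, Slc9b2 at 17.1 and 3.0, Ocstamp at 11.4 and 10.4 and Dcstamp at 3.1 and 19.8. How much of the low levels in any gate came from such free RNA was not tested. The NK gate, whose cells are not known to use the osteoclast genes other than Nfatc1, gives the level to hold them against.

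The receptor gene Tnfrsf11a was found across the myeloid gates. In the control IgG library it stood at 143 CPM (134 to 153) in the macrophage gate, 129 (121 to 137) in cells of no gate and 122 (117 to 128) in the monocyte gate, with overlapping intervals between neighbours, then at 92.5 in the dendritic, 7.97 in the neutrophil and 4.20 in the NK gate. In the anti-CD3L1 library the order began with the macrophage gate at 123 CPM (119 to 126), followed by the monocyte gate at 103 and cells of no gate at 101, whose intervals overlap, the dendritic gate at 74.9, the neutrophil gate at 35.5 and the NK gate at 10.2. The ratio between libraries was −0.22 (−0.33 to −0.12) in macrophage-gated and −0.25 (−0.34 to −0.17) in monocyte-gated cells, so the receptor was slightly lower in both.

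Nfatc1 was higher in NK-gated cells than in any myeloid gate, at 181 CPM (163 to 202) and 217 (207 to 228). The 8 and 53 B cells held 325 and 180 CPM, and the 32 fibroblast-gated cells 104. The macrophage gate stood at 33.0 and 33.7 CPM, a log2 ratio of 0.03 (−0.18 to 0.25), which was within counting error. Monocyte-gated cells held 26.9 and 37.6 CPM, a ratio of 0.48 (0.32 to 0.65). Cells of no gate held 93.6 and 61.9 CPM. The neutrophil gate stood at 29.8 and 62.5 CPM (1.07, 0.78 to 1.34) and the dendritic gate at 49.4 and 50.3 (0.03, −0.45 to 0.54).

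The fusion genes Dcstamp and Ocstamp differed from each other. Dcstamp was low in the control IgG library, at 4.52 CPM (3.02 to 6.49) in the macrophage, 3.79 (2.90 to 4.86) in the monocyte, 3.80 (0.78 to 11.1) in the dendritic, 0.40 (0.21 to 0.68) in the neutrophil gate and 10.4 in cells of no gate. In the anti-CD3L1 library it stood at 31.6, 27.8, 52.5, 39.6 and 59.5 CPM in the same order. The intervals of the libraries do not overlap in any of these 5 sets of cells, and the log2 ratios ran from 2.52 in cells of no gate to 6.65 in the neutrophil gate. The neutrophil level came from few cells, with 13 UMIs in 0.146% of 5469 and 78 UMIs in 1.48% of 541 cells. NK-gated cells had 0 UMIs in the control IgG library, which allows up to 1.57 CPM. In the anti-CD3L1 library they held 3.27 CPM (2.16 to 4.76), higher than that limit but below the other 5 sets. The smaller innate lymphoid gate (39 and 187 cells) had 0 UMIs, which allows up to 8.46 CPM, and 63.5 CPM (50.9 to 78.4). The higher level with anti-CD3L1 was thus not confined to the myeloid gates. Free RNA of Dcstamp was also higher with anti-CD3L1, at 3.1 and 19.8 CPM, and its part in the difference was not tested. Ocstamp in the monocyte gate stood at 17.2 and 18.4 CPM (log2 0.09, −0.12 to 0.31), with 6.85 and 8.62 in the macrophage gate (0.33, −0.13 to 0.82), and neither difference exceeded counting error. Cells of no gate held 13.5 and 16.3 CPM (0.27, −0.07 to 0.61), also within counting error. In the neutrophil gate Ocstamp was higher with anti-CD3L1, at 1.25 and 8.12 CPM (2.70, 1.77 to 3.57), from 41 and 16 UMIs. In the dendritic gate it was lower, at 16.5 and 8.25 CPM (−0.997, −1.87 to −0.012), from 13 and 64 UMIs. The monocyte interval overlapped that of the dendritic gate with control IgG (16.5 CPM, 8.77 to 28.2) and that of the ungated cells with anti-CD3L1 (16.3 CPM, 14.4 to 18.4).

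**Figure D5:**
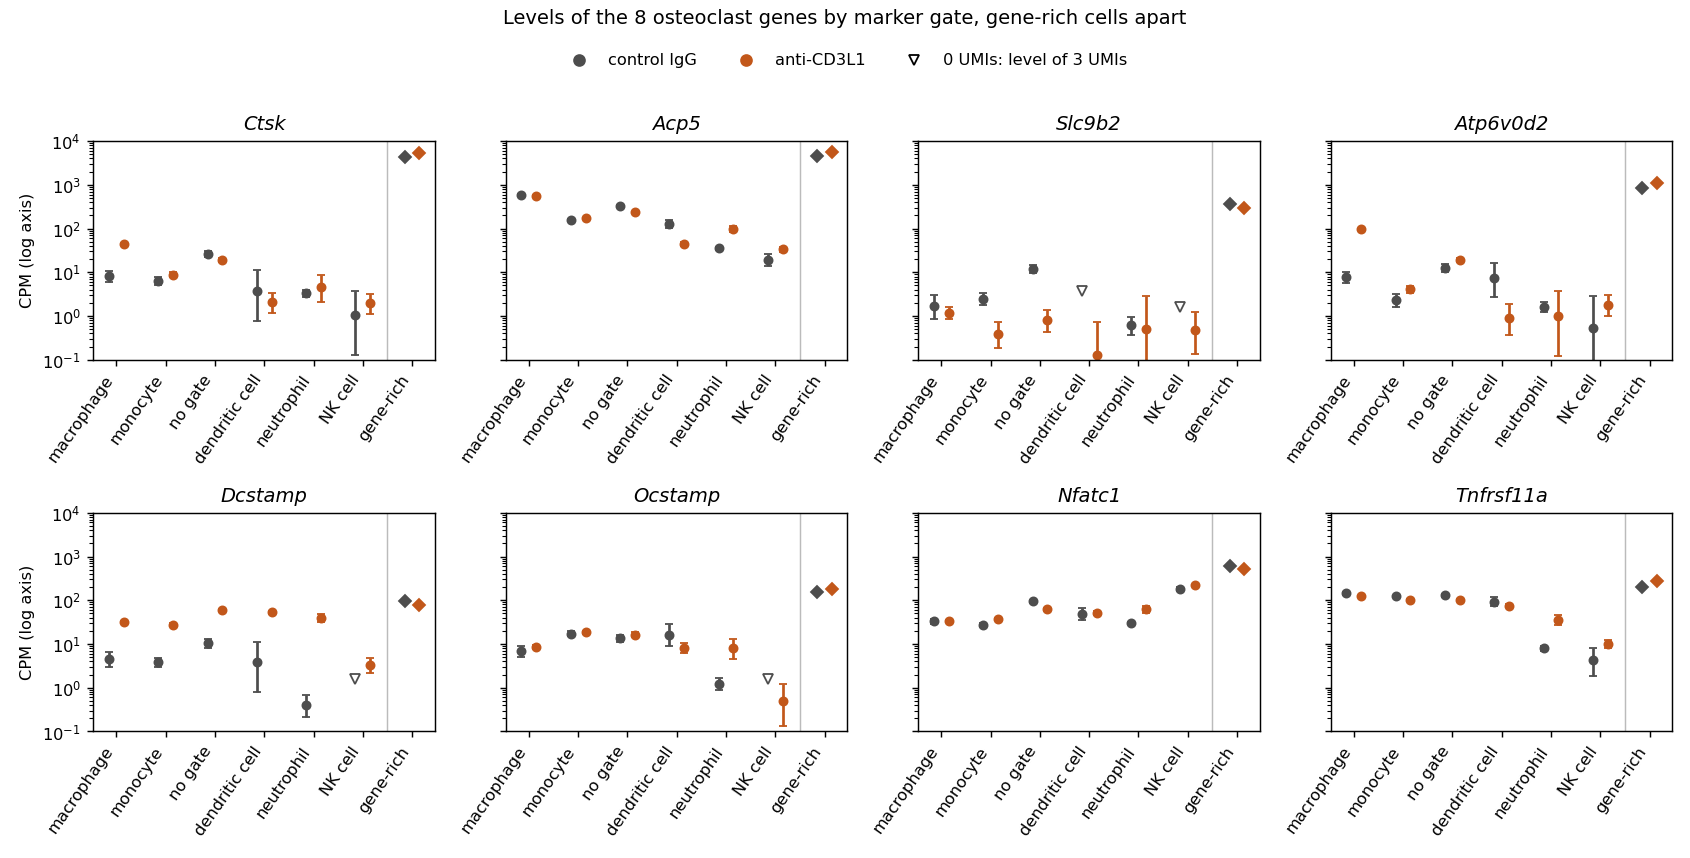
Each panel gives the CPM (log axis) of 1 gene in the cells of 6 marker sets without gene-rich cells (circles, bars 95% counting intervals) and in the gene-rich cells (diamonds), for the control IgG (grey) and anti-CD3L1 (orange) libraries; open triangles mark the level 3 UMIs would give where a gene had 0. Dcstamp is higher in the anti-CD3L1 library in each of the 6 sets, with 0 UMIs in the NK gate of the control IgG library. Atp6v0d2 and Ctsk are higher in the anti-CD3L1 library in the macrophage gate (96.8 against 7.79 CPM, 44.0 against 8.10 CPM).

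The pump subunit gene Atp6v0d2 was concentrated in the macrophage gate of the anti-CD3L1 library. There it stood at 96.8 CPM (93.6 to 100.0) against 7.79 (5.78 to 10.3) in the control IgG macrophage gate, a log2 ratio of 3.64 (3.23 to 4.07), and at most 19.3 CPM in the other 5 sets of cells in either library. In the monocyte gate it was at 2.32 and 4.07 CPM (0.81, 0.26 to 1.39) and in the NK gate at 0.52 and 1.82. Slc9b2 was low in all 6 sets, and lower with anti-CD3L1 in the ungated and monocyte-gated cells. It was at 11.8 and 0.81 CPM in cells of no gate (log2 −3.87, −4.84 to −3.02), at 2.44 and 0.39 in the monocyte gate (−2.63, −3.80 to −1.61), and at 1.71 and 1.20 in the macrophage gate (−0.51, −1.49 to 0.59), where the counts were 11 and 43 UMIs. Free RNA of Slc9b2 was also lower in the anti-CD3L1 library, and its part was not tested.

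Ctsk gave opposite answers with and without the gene-rich cells. Over all kept cells it stood at 59.0 CPM (57.2 to 60.9) and 47.2 CPM (45.8 to 48.5), a ratio of −0.32 (−0.39 to −0.26). Without the 25 and 20 cells it stood at 7.14 and 24.2 CPM, a ratio of 1.76 (1.62 to 1.91). In the macrophage gate the ratio was 0.91 (0.71 to 1.11) with them and 2.44 (2.04 to 2.87) without, at 8.10 and 44.0 CPM. In the monocyte gate it was −1.22 (−1.47 to −0.97) with them and 0.47 (0.13 to 0.82) without, since 1 control IgG cell held 234 of the 339 monocyte-gated Ctsk UMIs. Cells of no gate went the other way without gene-rich cells, at 26.3 and 19.5 CPM (−0.43, −0.69 to −0.17). The neutrophil gate (0.45, −0.72 to 1.43) and the dendritic gate (−0.88, −2.69 to 1.54) were within counting error. Ratios over all kept cells also take in the unlike make-up of the libraries (5471 and 541 neutrophil-gated cells), whose part was not tested. NK-gated cells without the 1 gene-rich cell stood at 1.05 and 1.94 CPM. The 32 fibroblast-gated cells of the anti-CD3L1 library had the highest Ctsk level of any gate, 334 CPM (289 to 384), with Nfatc1 at 104 and Acp5 at 10.1 CPM and 0 UMIs of Atp6v0d2, Ocstamp and Tnfrsf11a.

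Acp5 was a gene of the macrophage gate as a whole. It stood at 585 CPM (567 to 604) and 567 CPM (559 to 575), a ratio of −0.05 (−0.10 to 0.01) that was within counting error. The monocyte gate followed with 159 and 170 CPM, cells of no gate held 327 and 235, and the NK gate 19.4 and 33.3. Cells were also thinned at random to 2000 UMIs so that depth is equal, here with gene-rich cells included. Of the macrophage-gated cells, 52.8% with control IgG and 55.8% with anti-CD3L1 had an Acp5 UMI, a difference with an interval of −1.89 to 7.93 points. Of the NK-gated cells, 4.61% and 6.30% had one.

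Counted as calls with all macrophage-gated cells included, 2 of the 8 members, Atp6v0d2 and Dcstamp, were at least 2-fold higher in the anti-CD3L1 library, where 7.6% of the 14164 genes with at least 20 UMIs were, and 0 were at least 2-fold lower, where 4.77% of genes were. The median log2 ratio of the members was 0.14, and that of all genes 0.0033. In the monocyte gate 1 member, Dcstamp, was higher (11.7% of 13577 genes) and 2, Ctsk and Slc9b2, were lower (2.71%), with medians of −0.08 for the members and 0.24 for all genes. With the gene-rich cells left out, Ctsk joined the 2 higher members of the macrophage gate, and in the monocyte gate its ratio was 0.47, which leaves Slc9b2 alone as lower. With so few members these counts are set beside the background and nothing is read from them about the set.

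Holding of several members by the same cell was first counted over all gates, with gene-rich cells included. In thinned cells, 63 of 8082 control IgG cells (0.780%, 0.600 to 0.996%) and 264 of 10310 anti-CD3L1 cells (2.56%, 2.26 to 2.88%) held at least 3 of the 8, a difference of 1.78 points (1.42 to 2.15). Shallower cells, 475 and 959, were left out, and without thinning the shares were 6.44% and 20.3%. With the neutrophil-gated cells left out the difference was 0.49 points, with an interval of −0.18 to 1.07 that includes 0. With the gene-rich cells left out instead, 38 of 8057 and 245 of 10290 cells held 3 members, a difference of 1.91 points (1.58 to 2.25). In the macrophage gate 6 of 445 (1.35%, 0.496 to 2.91%) and 179 of 3392 (5.28%, 4.55 to 6.08%) held 3 members, a difference of 3.93 points (2.22 to 5.01). In the monocyte gate they were 1.18% and 0.884% (−0.29 points, −1.10 to 0.32) and in cells of no gate 4.39% and 2.76% (−1.63, −3.39 to −0.16). Of the gene-rich cells, 3 and 6 lay in the macrophage gate and 18 and 13 among the ungated cells. Leaving them out took the control IgG count over all gates from 63 to 38, so all 25 were among the cells with 3 members. Gene-rich cells were thus 18 of the 36 ungated control IgG cells with 3 members, and at most 13 of the 51 of anti-CD3L1. The differences in single gates, that of the ungated cells among them, were not recomputed without them. NK-gated cells were at 0 of 152, which allows up to 1.97%, and 4 of 826 (0.484%).

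Apart from the gene-rich cells, Ctsk and Atp6v0d2 were held together in macrophage-gated cells of the anti-CD3L1 library. Of its 176 thinned macrophage-gated cells with a Ctsk UMI, 53 (30.1%) also had Atp6v0d2, against 9.60% of the 3210 without Ctsk. The control IgG gate had 4 thinned cells with Ctsk, too few to compare. Over all thinned cells without gene-rich ones, Atp6v0d2 was in 5 of 67 control IgG cells with Ctsk (7.46%), against 0.325% without. With anti-CD3L1 it was in 58 of 285 (20.4%), against 3.66%. This comparison mixes the gates and rests on 5 control IgG cells. Whether the pairing held within the control IgG macrophage gate was not tested. Before thinning, 66 of 3489 macrophage-gated anti-CD3L1 cells (1.89%, 1.47 to 2.40%) held at least 3 UMIs of each gene, and 1 of 448 (0.223%, 0.00565 to 1.24%) in the control IgG library. These 66 cells held 48.3% of the Ctsk and 18.0% of the Atp6v0d2 UMIs of the gate, and up to 52 Ctsk UMIs each. They were deeper than the gate, with a median of 14439 UMIs against 9960. Cells with 6 members at 0.5% of UMIs had been taken out beforehand, so low values of the other members are partly set by the choice of cells, and they are given as a description: Slc9b2 gave 1 UMI and Ocstamp 1 UMI in all 66 cells, Nfatc1 13 UMIs (13.3 CPM) and Tnfrsf11a 80.8 CPM, with Acp5 in 65 of 66 at 802 CPM. Mmp9 was in 1 of the 66, at 1.02 CPM. Among other genes with at least 200 UMIs in them, the largest log2 ratios over the remaining macrophage-gated cells were those of Mfge8 (5.37, though in 8 of the 66 cells), Gpnmb (2.42, in 63), Mmp12 (2.26, in 54), the clotting factor gene F7 (2.08, in 57) and the fatty acid binding protein gene Fabp4 (1.82, in 36). Gpnmb and Mmp12, a lysosomal glycoprotein and the macrophage elastase, stood at 1428 and 1153 CPM there and at 207 and 4.81 CPM in the gene-rich cells of the same library. The 66 cells were chosen after their values were seen and have no test.

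For other pairs the shares lay closer together. These shares are of thinned macrophage-gated cells of the anti-CD3L1 library without gene-rich cells. Acp5 was found in 62.5% of cells with Ctsk and in 55.4% of those without, and in 71.2% of cells with Atp6v0d2 and 53.9% of those without. Dcstamp was in 5.26% of cells with Atp6v0d2 and in 4.17% of those without. Tnfrsf11a was in 17.0% of the cells with Ctsk and 19.9% of those without. Over the macrophage-gated, monocyte-gated and ungated cells together (2541 and 8181 thinned cells), genes were ranked by the lower of their 2 correlations, 1 per library, with the number of members held, and the first 10 were Cd63, Myo1e, Ms4a7, Apoe, Pltp, Bcar3, Gpr137b, Cxcl16, C1qa and C1qb. Their correlations (Pearson's r across cells, which share a library and a depth) were weak, from 0.130 to 0.230 in the control IgG and 0.136 to 0.260 in the anti-CD3L1 library. Ms4a7, C1qa and C1qb are themselves markers of the macrophage gate, here pooled with cells outside it. With gene-rich cells included, Acp5 was in 52.8% and 55.8% of the thinned macrophage-gated cells, but in 23.7% and 23.2% of the monocyte-gated ones. How far the ranks follow the gates or the gene-rich cells was not tested. With control IgG alone, Nrp2 (0.198) and St18 (0.190) had higher values than 9 of the 10. With anti-CD3L1 they stood at 0.116 and 0.120, below all 10.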

How the data were processed

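The RNA of CD45+ cells was measured in 1 library per group. The authors deposited UMI counts per mouse gene and barcode, unnormalized, made with Cell Ranger 7.1.0 against GRCm39 per the submitters' processing notes. A further deposited table of the authors' own comparison of macrophage genes was not used. Barcodes with at least 500 UMIs, over 200 and under 6000 genes and under 5% mitochondrial UMIs were kept, and libraries held 74850604 and 108246719 UMIs in all. Cells were gated by 14 lists of 6 markers (4 dendritic lists form 1 gate). UMIs were summed per gate and divided by all UMIs of the gate. Intervals are 95%, exact (Poisson) for CPM, Clopper-Pearson for shares, conditional binomial for ratios and Newcombe's for differences, and a count of 0 was given 3 counts as its limit. Python 3.11.15, numpy 2.4.6, scipy 1.17.1 and pandas 2.3.3 were used, and scripts were checked on simulated data. With 1 library per group no p-value was computed. Alternatives changed the cell filters, thinning, gates, scaling and free RNA. The members, gene lists and markers were chosen with earlier results of these data known. Named genes are the 8 members, the listed pathway genes and the 10 genes with the highest lower correlation of the 2 libraries with the number of members. Others were named after their values were seen. One listed gene is not reported here.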

Additional observations from a re-analysis of the deposited data

Results flagged for a closer look

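Ctsk went opposite ways in the 2 gates when all cells were counted: dividing anti-CD3L1 by control IgG, the log2 ratio was 0.91 in the macrophage gate and −1.22 in the monocyte gate. This difference between the gates was not tested. Without gene-rich cells the ratios were 2.44 and 0.47, so the opposite signs rest on those cells, 1 of them in the monocyte gate of the control IgG library.

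The limit on genes per cell removed barcodes that otherwise met the gene-rich definition, 9 in the control IgG and 1 in the anti-CD3L1 library, of which 8 and 1 had under 5% mitochondrial UMIs. They lie outside the comparisons above other than those made with no limit on genes. Whether they are single large cells or droplets with more than 1 cell was not tested.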

How the results depend on the processing

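No paired analysis was possible because each group has 1 library, and for the same reason no library could be left out. The difference in the share of cells with at least 3 members (1.78 points) was recomputed in 11 alternatives. A minimum of 1000 UMIs per cell could not change it, since thinning had already left those shallower cells out. In the other alternatives it stayed above 0, at 0.495 points with cells thinned to 1000 UMIs, 6.10 at 4000 and 13.8 with no thinning. The difference was 10.8 points for at least 2 members, 0.110 for at least 4 and 0.492 without neutrophil-gated cells. For at least 4 members and without neutrophil-gated cells, the interval included 0. The summed level of the 8 genes in the macrophage gate (log2 ratio 0.15) is near 0 and changed sign in 3 alternatives: −0.037 with under 10% mitochondrial UMIs allowed, −0.16 with gates by summed marker UMIs and −0.35 as UMIs per cell. It was 0.20 without cells of a second gate, 0.20 without gene-rich cells, 0.24 with 4 markers for a gate, 0.22 with gates set on thinned cells and 0.063 with the NK level subtracted. Atp6v0d2 and Dcstamp were called higher in every alternative. The number of higher members was 4 with 4 markers and with gates on thinned cells, where Ctsk and Slc9b2 joined them. The number of lower members rose from 0 to 1 (Slc9b2) with under 10% mitochondrial UMIs and as UMIs per cell, and to 2 (Ctsk and Slc9b2) with summed marker UMIs. The difference in gene-rich cells (−0.11 points) kept its sign in all 9 alternatives, at −0.559 without neutrophil-gated cells and −0.475 among cells thinned to 10000 UMIs, and its interval lay below 0 in these and in 3 others (a limit of 0.3% of UMIs, no limit on genes, and under 10% mitochondrial UMIs). The alternatives that left out gene-rich or neutrophil-gated cells, and all for the gene-rich definition, were chosen after seeing the data. The causes were not tested.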

Other observations

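The gene-rich cells also shared genes outside the lists. Ranked by the lower of the 2 libraries' log2 ratios over the macrophage gate, among genes at 100 CPM or more in the gene-rich cells of both, the highest outside the lists were Bdh2 (5.28 in the control IgG and 5.06 in the anti-CD3L1 library), Fxyd2, a regulator of the sodium/potassium pump (5.03 and 5.52), Cd200, a surface glycoprotein (5.70 and 4.38), and the mitochondrial protein gene Chchd10 (4.37 and 4.17). Ppargc1b, a coactivator of mitochondrial gene expression (4.41 and 4.08), and Coq8a, of coenzyme Q synthesis (4.02 and 4.90), were also among the first 15. S100a4 was found in all 45 cells, at 7322 and 7349 CPM against 396 and 576 in the macrophage gate. Bdh2 was in 24 of 25 and 19 of 20 cells, whereas Fxyd2 was in 8 of 25 and 18 of 20.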
